A study of Mus musculus with 6 samples.

Results

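This section describes 40 genes of the cell division cycle and of the p53 response, chosen by name as cyclins and their kinases, replication genes, mitosis genes and p53 targets or inhibitors. All 40 were found among the 58601 rows of the expression table by their mouse gene symbols. RNA was sequenced from liver of mice labelled as Mdr2 knockouts (titles give Mdr2-/-, and the growth protocol gives Mdr2-HKO without spelling it out). Of 6 libraries, 3 belong to the vehicle group and 3 to the group treated with lycorine, a plant alkaloid found in Amaryllidaceae. All mice were 8 weeks old at the start and were treated for 2 weeks. Both groups carry the knockout by their labels, and no library of another genotype was analysed here. Mdr2 is the former name of Abcb4, which encodes a phospholipid flippase of the bile canaliculus, and its loss injures bile ducts. Sex, dose and route are not given in the labels. The labels do not state that each library is a separate animal, so p-values reflect only library-to-library spread, some of which may be technical.

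Cells enter the cycle when D-type cyclins activate Cdk4 and Cdk6, which inactivate the retinoblastoma proteins and free E2F factors to switch on replication genes. Cyclins E and A with Cdk2 then drive DNA synthesis, and cyclins A and B with Cdk1 drive mitosis. The transcription factor p53, encoded by Trp53, responds to DNA damage and other stress by inducing the inhibitor p21 (Cdkn1a), its own antagonist Mdm2 and genes of cell death. Adult hepatocytes rarely divide, but liver injury can bring them, bile duct cells and immune cells into the cycle. In bulk RNA, fewer cells of a type and less RNA per cell cannot be told apart.

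Many mitosis genes share promoter elements, shown here for Cdk1 and Top2a, which were chosen after the search because they hold several matches, and for Gadd45b and Btg2 because these had the largest differences toward lower levels in lycorine. RefSeq promoters on GRCm38.p6 were available for 32 members, in 37 promoters. The windows searched ran from 250 bases before to 50 bases after the RefSeq gene start. The 250 upstream bases are printed 5′ to 3′, with capitals for matches on either strand to TTTGAA or TTCGAA (the cell cycle genes homology region, CHR), to CCAAT (the CCAAT box) and to TTTCGCGC, TTTGGCGC, TTTCCCGC or TTTGCCGC (E2F sites). No matches overlapped in these 4 sequences. Cdk1 is shown from chr10:69352913-69353162 (minus strand), Top2a from chr11:99024190-99024439 (minus strand), Gadd45b from chr10:80929841-80930090 (plus strand) and Btg2 from chr1:134079156-134079405 (minus strand).
Cdk1: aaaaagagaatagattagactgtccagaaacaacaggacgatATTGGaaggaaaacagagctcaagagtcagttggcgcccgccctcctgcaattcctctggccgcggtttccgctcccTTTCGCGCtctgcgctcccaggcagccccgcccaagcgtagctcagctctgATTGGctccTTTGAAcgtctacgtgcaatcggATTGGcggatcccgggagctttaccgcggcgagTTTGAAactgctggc
Top2a: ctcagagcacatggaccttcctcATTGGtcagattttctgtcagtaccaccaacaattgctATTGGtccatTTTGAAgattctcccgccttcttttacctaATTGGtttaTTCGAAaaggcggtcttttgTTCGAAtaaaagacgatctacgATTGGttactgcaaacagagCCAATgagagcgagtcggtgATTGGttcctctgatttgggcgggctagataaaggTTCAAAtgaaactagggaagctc
Gadd45b: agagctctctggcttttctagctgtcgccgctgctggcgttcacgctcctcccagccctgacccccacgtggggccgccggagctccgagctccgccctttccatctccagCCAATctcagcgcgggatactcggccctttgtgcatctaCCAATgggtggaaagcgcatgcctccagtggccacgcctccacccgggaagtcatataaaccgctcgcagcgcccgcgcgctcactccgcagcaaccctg
Btg2: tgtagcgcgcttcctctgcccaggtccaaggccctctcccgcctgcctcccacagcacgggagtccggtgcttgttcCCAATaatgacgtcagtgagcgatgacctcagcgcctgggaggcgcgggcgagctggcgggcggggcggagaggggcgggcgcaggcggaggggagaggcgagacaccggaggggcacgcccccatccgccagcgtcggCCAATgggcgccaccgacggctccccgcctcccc

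The Cdk1 sequence held 2 CHR matches, 3 CCAAT boxes and 1 E2F match, and the Top2a sequence held 4 CHR matches and 6 CCAAT boxes. Gadd45b and Btg2 each held 2 CCAAT boxes and neither of the other motifs. The promoter of Birc5, a mitosis member more abundant than Top2a, held no match to any of the 3 motifs. Across the windows, CHR letters were found in 6 of 8 promoters of G2 and mitosis members, 2 of 9 of replication members, 0 of 7 of G1 members and 1 of 13 of p53 response members, against 19.2% of all 32851 RefSeq promoters of that length. E2F letters were found in 4 of 9 promoters of replication members, 1 of 8 of G2 and mitosis members, 1 of 7 of G1 members and 0 of 13 of p53 response members, against 2.26% of all promoters. CCAAT was found in 9 of 9 promoters of replication members, 7 of 8 of G2 and mitosis members, 8 of 13 of p53 response members and 2 of 7 of G1 members, against 37.4% of all promoters. A match is a description of the letters, and binding was not measured.

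The deposited values are in TPM (a level per transcript length that sums to 1000000 in each library), so levels of different genes can be compared, but sequencing depth is unknown. Abcb4, the gene named as knocked out, was at 43.5 TPM in the library labelled vehicle 1 and 32.2 TPM in that labelled lycorine 3, against 8.32 to 12.3 TPM in the other 4. No library of another genotype gives a level to set these against, and a gene-level value does not show which part of the transcript remains. Counts without both of these libraries are also given. Hepatocyte markers were present in every library, with albumin (Alb) between 5039 and 19785 TPM. Vehicle 3 stood apart, with the lowest Alb and with 51.5% of its TPM in protein-coding nuclear genes, against 63.7% to 78.1% in the other libraries. For each tested member with its highest or lowest value in vehicle 3, the fold change is also given without that library.

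No member was called. Testing was done with limma on log2(TPM + 1) in rows averaging 1 TPM or more, and 28 of the 40 members passed this filter. Of these, 0 had a Benjamini-Hochberg adjusted p under 0.05, where 0 of 13854 rows did (0.0%), and their limma adjusted p values ran from 0.832 to 0.994. At an unadjusted p under 0.05, limma found 0 of 28 members, where 2.79% of all rows were higher and 0.65% lower in lycorine (3.44% in either direction). That split of all rows was 386 higher and 90 lower in TPM as deposited, 127 and 193 after median-of-ratios scaling, 137 and 158 after quantile normalization, and 143 and 104 over protein-coding nuclear genes alone. The vehicle and lycorine libraries overlapped in all 28 members, where 9.6% of all rows lay wholly higher and 1.01% wholly lower in lycorine (10.6% in either direction). In 7 of 28 members the difference between group means exceeded the pooled SD within groups, against 29.7% of all rows. The smallest exact permutation p of a single member, two-sided, was 0.2, for Ccnd3, Cdkn1b, Ccng1 and Gadd45b, and the design allows none below 0.1.

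Fold changes are lycorine minus vehicle on the log2(TPM + 1) scale, which understates differences of weakly expressed genes. All tested rows had a median log2 fold change of 0.22, which was -0.02 with median-of-ratios scaling, so member values near 0.22 lie at the middle of the table. The 28 members had a median of 0.26, with 22 above 0 and 6 below (30.1% of all rows were below). Of the 28, 15 exceeded the all-row median. With median-of-ratios scaling 15 of the 28 were above 0, where the all-row median was -0.02. Without vehicle 3, 17 of the 28 were above 0, where the all-row median was 0.19.

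**Figure D1:**
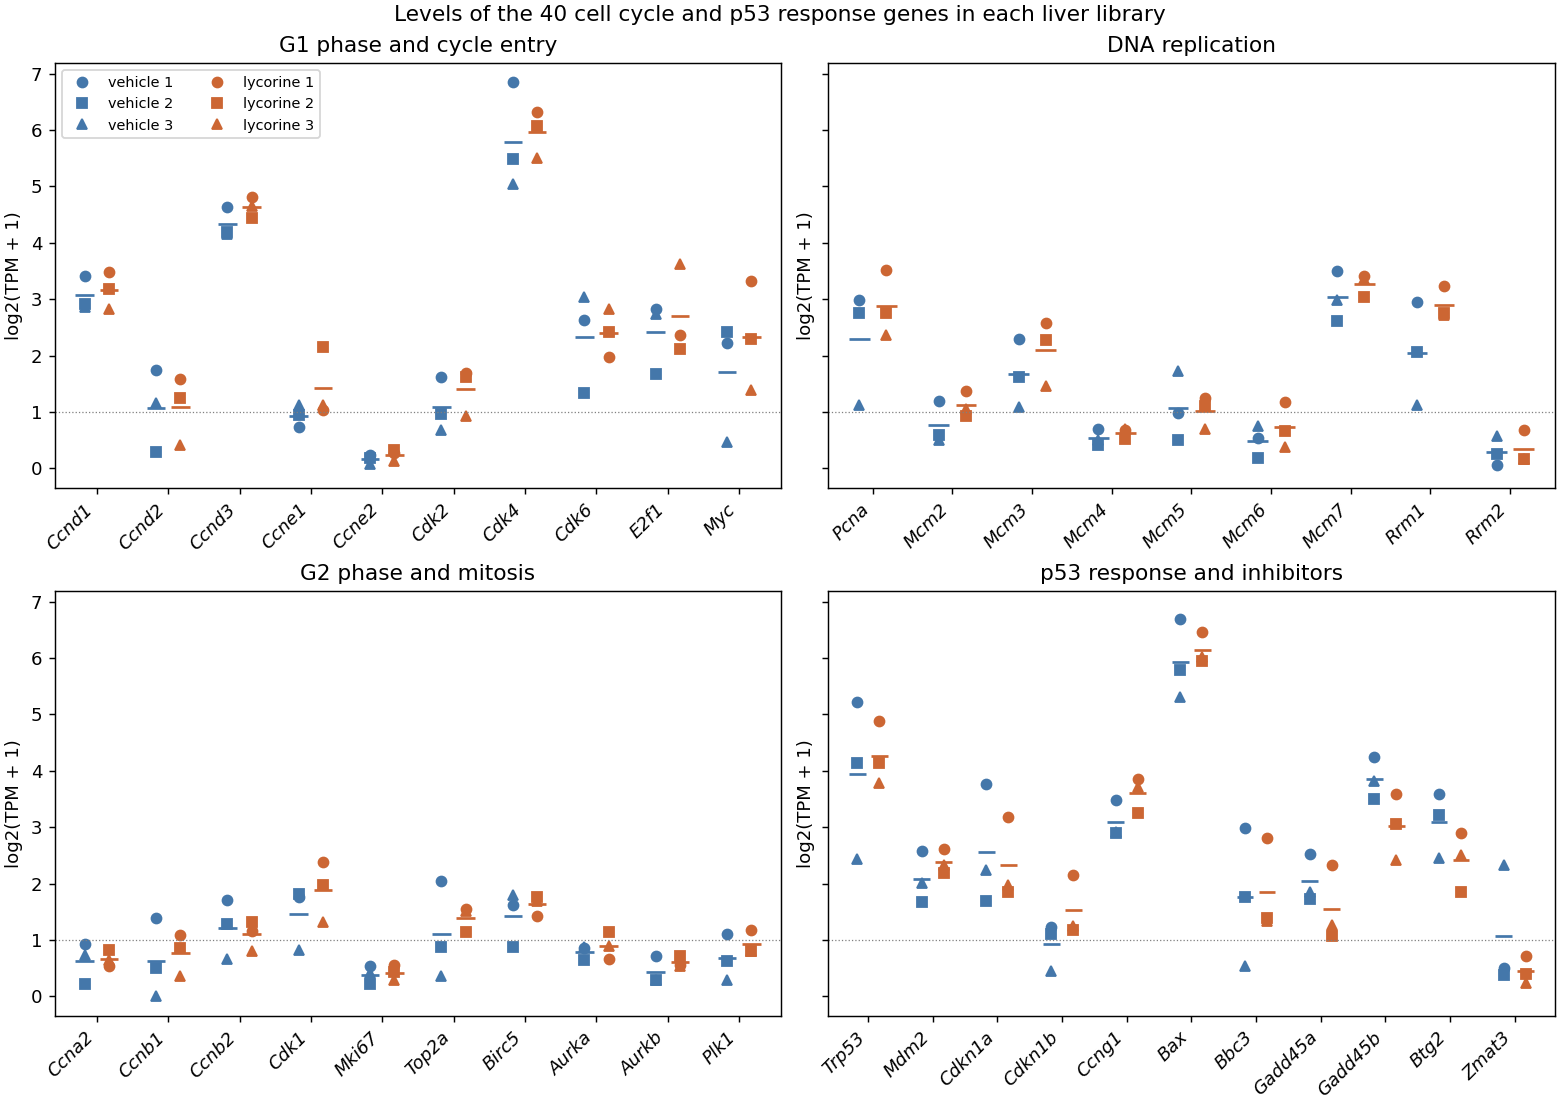
Levels of all 40 members as log2(TPM + 1) in each library, in 4 panels by role. Blue points are the vehicle and orange points the lycorine libraries, short lines are group means (n = 3 libraries each), and the dotted line marks 1 TPM. G2 and mitosis members lie near the bottom of the scale, Cdk4 and Bax near the top, and the 2 groups overlap in each of the 28 tested genes.

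Levels differed widely between roles. Of the 40 members, 17 were at 1 TPM or more in every library and 6 were below 1 TPM in every library. The 3 members with a mean of at least 20 TPM were Bax, Cdk4 and Ccnd3. The p53 response members had a median mean level of 5.39 TPM, the G1 members 4.19 TPM, the replication members 1.14 TPM and the G2 and mitosis members 0.794 TPM. No G2 and mitosis member reached a mean of 5 TPM, and Mki67, the proliferation antigen Ki-67, lay between 0.16 and 0.47 TPM in the 6 libraries.

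Among genes of the G1 phase, Cdk4, Ccnd3 and Ccnd1 led in level. Cdk4, the kinase partner of D-type cyclins, measured 113.8, 43.7 and 31.95 TPM in the vehicle libraries and 78.7, 66.5 and 44.5 TPM in the lycorine libraries. Vehicle 1 was the highest and vehicle 3 the lowest of the 6, and the group means were 63.2 ± 44.2 and 63.2 ± 17.3 TPM (SD, n = 3 each). Its log2 fold change was 0.18 (SE 0.50, adjusted p 0.937 in limma), and it was -0.20 without vehicle 3 and -0.13 with median-of-ratios scaling. Cdk4 overlaps Tspan31 on the opposite strand, which was listed at 33.2 to 213 TPM, and the use of strand in counting is not given in the sources used here, so reads of the pair may not have been told apart.

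Ccnd3, cyclin D3, measured 23.95, 17.3 and 16.9 TPM in the vehicle libraries and 27.2, 20.8 and 24.2 TPM in the lycorine libraries. Only vehicle 1 lay within the lycorine range. The log2 fold change was 0.31 (SE 0.29, adjusted p 0.832 in limma), 0.22 without vehicle 3 and 0.01 with median-of-ratios scaling. Ccnd1, cyclin D1, which many growth signals induce, measured 9.68, 6.54 and 6.29 TPM in the vehicle libraries and 10.2, 8.10 and 6.07 TPM in the lycorine libraries. Its ranges nearly coincided, with a log2 fold change of 0.10 (SE 0.31) that was -0.18 with median-of-ratios scaling. Ccnd1 overlaps the gene annotated as LTO1 on the opposite strand, at 27.7 to 70.8 TPM.

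Myc, a growth-promoting transcription factor, had the largest difference of the G1 group and also a wide spread. It measured 3.68, 4.36 and 0.38 TPM in the vehicle libraries and 9.03, 3.89 and 1.63 TPM in the lycorine libraries. Vehicle 3 was lowest and lycorine 1 highest, with the other 4 libraries in between. The log2 fold change of Myc was 0.63 (SE 0.67, adjusted p 0.836 in limma), and 0.01 without vehicle 3. Ccne1, cyclin E1, which activates Cdk2 at the start of replication, measured 0.66, 0.93 and 1.19 TPM in the vehicle libraries and 1.05, 3.42 and 1.17 TPM in the lycorine libraries. Lycorine 2 alone was high, and the log2 fold change of 0.50 (SE 0.47) was 0.14 without it. Cdk2 itself measured 2.06, 0.96 and 0.61 TPM in the vehicle libraries and 2.22, 2.06 and 0.91 TPM in the lycorine libraries, a log2 fold change of 0.32 (SE 0.45) that was 0.12 without vehicle 3.

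The other 4 G1 members had smaller differences or lower levels. E2f1, an activating E2F factor, ran from 2.20 to 6.10 TPM in vehicle and from 3.32 to 11.3 TPM in lycorine, with lycorine 3 the highest. Cdk6, the second partner of D-type cyclins, ran from 1.51 to 7.22 TPM in vehicle and from 2.94 to 6.10 TPM in lycorine. Ccnd2, cyclin D2, ran from 0.23 to 2.34 TPM in vehicle and from 0.34 to 2.00 TPM in lycorine. Their log2 fold changes were 0.29, 0.07 and 0.02, and each changed sign without at least 1 library. Cdk6 was highest in vehicle 3 and had 0.43 without it. Ccne2, cyclin E2, was between 0.05 and 0.25 TPM and was not tested. The 9 tested genes of this role had log2 fold changes of 0.02 to 0.63 with a median of 0.29, and with median-of-ratios scaling 5 of the 9 were above 0.

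Replication genes were led by Mcm7, Pcna and Rrm1. Rrm1 (GRCm38 chr7:102441695-102469771, plus strand), the large subunit of ribonucleotide reductase, which makes deoxynucleotides, measured 6.74, 3.19 and 1.19 TPM in the vehicle libraries and 8.35, 5.78 and 5.58 TPM in the lycorine libraries. Vehicle 2 and vehicle 3 lay below all lycorine libraries, and vehicle 1 lay among them. Its log2 fold change of 0.85 (SE 0.48, adjusted p 0.832 in limma) was the highest of all tested members, and it was 0.39 without vehicle 3 and 1.30 without vehicle 1. Over the 18 alternative settings the value stayed above 0, between 0.39 and 1.39.

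Pcna, the sliding clamp of DNA polymerases, measured 6.90, 5.73 and 1.18 TPM in the vehicle libraries and 10.4, 5.72 and 4.12 TPM in the lycorine libraries. Vehicle 3 was the lowest of the 6, and the log2 fold change was 0.59 (SE 0.55, adjusted p 0.832 in limma) with it and 0.01 without it. Mcm3, a subunit of the MCM2-7 helicase that unwinds DNA at origins, measured 3.92, 2.09 and 1.13 TPM in the vehicle libraries and 4.94, 3.82 and 1.76 TPM in the lycorine libraries. Its log2 fold change was 0.43 (SE 0.45), and 0.14 without vehicle 3. Mcm7, another subunit, measured 10.3, 5.15 and 6.94 TPM in the vehicle libraries and 9.58, 7.25 and 9.22 TPM in the lycorine libraries, a log2 fold change of 0.23 (SE 0.32) that was -0.04 with median-of-ratios scaling. Mcm7 overlaps Cops6 on the opposite strand, at 44.5 to 91.7 TPM.

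The other 4 helicase subunits were near the floor of the table. Mcm5 measured 0.98, 0.42 and 2.32 TPM in the vehicle libraries and 1.37, 1.15 and 0.62 TPM in the lycorine libraries, with a log2 fold change of -0.06 (SE 0.50) and of 0.27 without vehicle 3. Mcm2, Mcm4 and Mcm6 were below the filter, with 0.42 to 1.29, 0.33 to 0.62 and 0.13 to 0.68 TPM in vehicle and 0.91 to 1.60, 0.44 to 0.62 and 0.30 to 1.26 TPM in lycorine. Rrm2, the small subunit of ribonucleotide reductase, which dividing cells need, was at 0.04 to 0.49 TPM in vehicle and 0.12 to 0.60 TPM in lycorine, below its partner Rrm1 in every library. The 5 tested replication genes had a median log2 fold change of 0.43, where that of all rows was 0.22. It was 0.21 with median-of-ratios scaling, where that of all rows was -0.02. Without vehicle 3 it was also 0.21, where that of all rows was 0.19.

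Genes of G2 and mitosis were weakly expressed in both groups. Cdk1, the mitotic kinase, was the most abundant, with 2.41, 2.51 and 0.78 TPM in the vehicle libraries and 4.20, 2.95 and 1.51 TPM in the lycorine libraries. Its vehicle libraries 1 and 2 lay within the lycorine range. The log2 fold change was 0.42 (SE 0.44, adjusted p 0.833 in limma), and 0.11 without vehicle 3. Top2a, the topoisomerase that untangles DNA in dividing cells, measured 3.15, 0.84 and 0.29 TPM in the vehicle libraries and 1.92, 1.20 and 1.86 TPM in the lycorine libraries. The vehicle libraries held both its highest and its 2 lowest values, and the log2 fold change of 0.30 (SE 0.52) was 0.78 without vehicle 1 and -0.07 without vehicle 3.

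Birc5, survivin, an inhibitor of cell death needed in mitosis, measured 2.08, 0.83 and 2.46 TPM in the vehicle libraries and 1.70, 2.41 and 2.23 TPM in the lycorine libraries, with a log2 fold change of 0.20 (SE 0.39) that was 0.38 without vehicle 3. Ccnb2, cyclin B2, measured 2.26, 1.43 and 0.59 TPM in the vehicle libraries and 1.25, 1.51 and 0.75 TPM in the lycorine libraries, with -0.12 (SE 0.45), or -0.39 without vehicle 3. In both, the lycorine libraries lay inside the vehicle range. The remaining 6 mitosis members did not pass the filter and reached at most 1.62 TPM in any library. Ccnb1, cyclin B1, was listed at 0 in vehicle 3, and was at 1.62 and 0.42 TPM in the other vehicle libraries and at 0.29 to 1.12 TPM in lycorine. Ccna2 (cyclin A2), Aurka and Aurkb (Aurora kinases of the spindle) and Plk1 (a kinase of mitotic entry) lay between 0.16 and 1.26 TPM, and their groups overlapped. These 6 members were not tested and depth is unknown, so whether their levels differ between the groups was not determined.

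**Figure D2:**
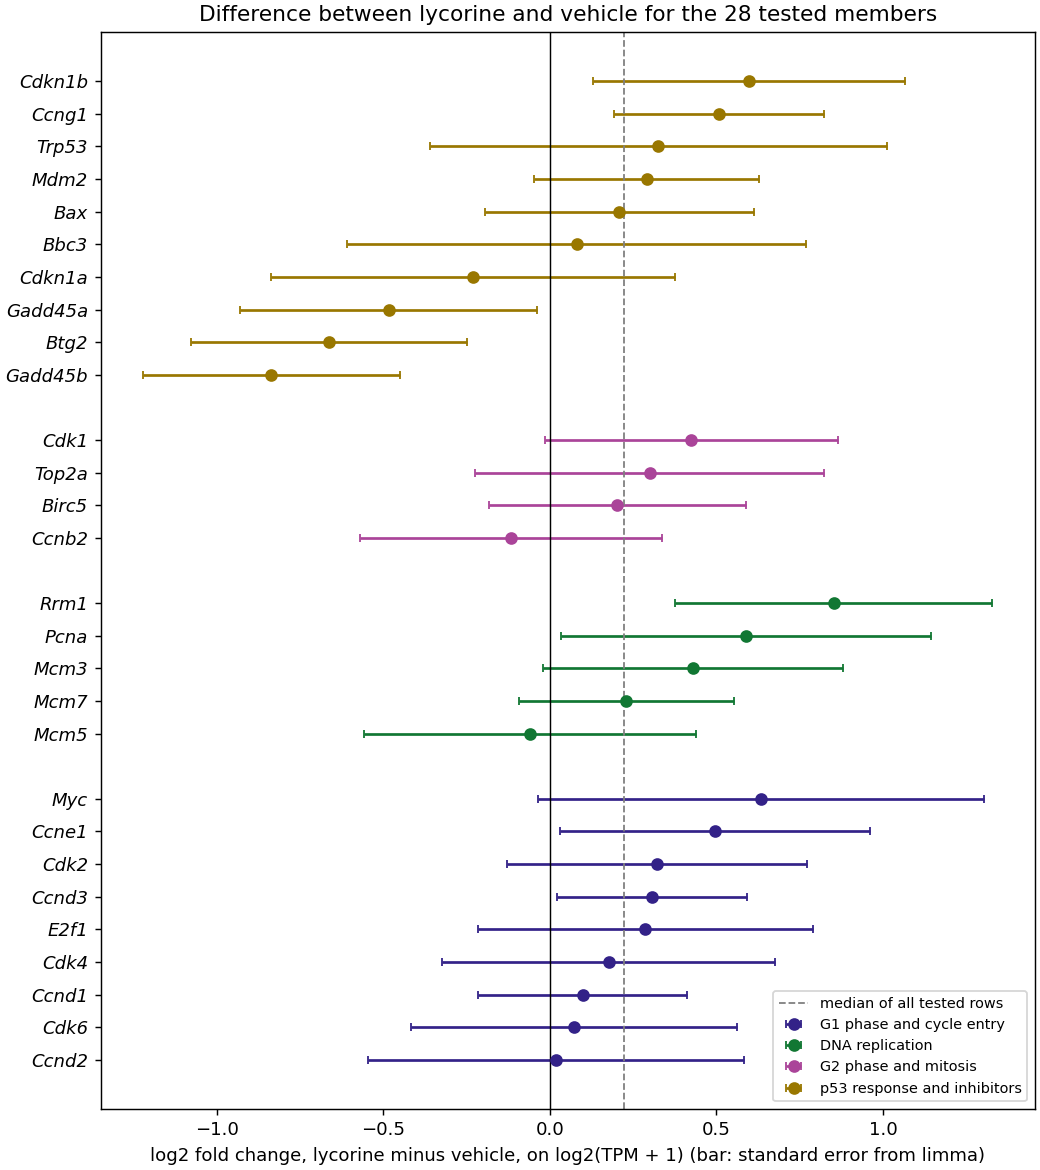
Log2 fold change of each tested member, lycorine minus vehicle on log2(TPM + 1), with the limma standard error as the bar. The solid line marks 0 and the dashed line the median of all tested rows, 0.22. Gadd45b, Btg2 and Gadd45a lie farthest to the left and Rrm1 farthest to the right, and none passed the adjusted threshold.

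Of the 10 tested p53 response members, 6 had a fold change above 0 and 4 below. Trp53 measured 36.5, 16.7 and 4.45 TPM in the vehicle libraries and 28.4, 16.5 and 12.8 TPM in the lycorine libraries. The means were 19.2 ± 16.2 and 19.3 ± 8.17 TPM (SD, n = 3 each), and the vehicle libraries covered the whole lycorine range. Its log2 fold change was 0.33 (SE 0.68), and -0.42 without vehicle 3. Mdm2, the ligase that degrades p53 and is induced by it, measured 4.97, 2.18 and 3.03 TPM in the vehicle libraries and 5.14, 3.55 and 4.01 TPM in the lycorine libraries, with a log2 fold change of 0.29 (SE 0.34) that was 0.06 with median-of-ratios scaling.

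The 2 inhibitors of cyclin-dependent kinases had fold changes of opposite sign. Cdkn1a (p21), the main inhibitor induced by p53, measured 12.7, 2.24 and 3.73 TPM in the vehicle libraries and 8.12, 2.60 and 2.95 TPM in the lycorine libraries. It was high in vehicle 1 and lycorine 1 and low in the other 4 libraries. Its log2 fold change of -0.23 (SE 0.61) was 0.37 without vehicle 1. Cdkn1b (p27), an inhibitor of resting cells that is not a classical p53 target, measured 1.35, 1.16 and 0.36 TPM in the vehicle libraries and 3.43, 1.26 and 1.39 TPM in the lycorine libraries. Lycorine 1 was the highest and vehicle 3 the lowest, and the log2 fold change was 0.60 (SE 0.47, adjusted p 0.832 in limma), or 0.29 without lycorine 1 and 0.36 without vehicle 3.

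The other p53 targets did not pass the adjusted threshold in limma. Ccng1, cyclin G1, a strong p53 target in liver, measured 10.2, 6.43 and 6.55 TPM in the vehicle libraries and 13.4, 8.53 and 12.2 TPM in the lycorine libraries. Only lycorine 2 lay below vehicle 1, and the log2 fold change was 0.51 (SE 0.32, adjusted p 0.832 in limma), or 0.23 with median-of-ratios scaling. Bax, which opens the mitochondrial outer membrane in cell death, had the highest mean of all members and measured 102.3, 54.1 and 38.8 TPM in the vehicle libraries and 86.8, 60.7 and 63.6 TPM in the lycorine libraries. Its log2 fold change was 0.21 (SE 0.40), and -0.10 without vehicle 3 and with median-of-ratios scaling. Bbc3 (PUMA), an activator of Bax, measured 6.92, 2.41 and 0.46 TPM in the vehicle libraries and 6.04, 1.63 and 1.52 TPM in the lycorine libraries, with 0.08 (SE 0.69), or -0.53 without vehicle 3. Zmat3, a p53-induced RNA-binding protein, reached 4.06 TPM in vehicle 3 against 0.18 to 0.64 TPM in the other 5 libraries, and its mean was below the filter.

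Gadd45b, Btg2 and Gadd45a, stress-induced genes, had the lowest fold changes of all tested members. Gadd45b (GRCm38 chr10:80930073-80932204, plus strand), which NF-kB and other stress signals also induce, measured 18.0, 10.3 and 13.2 TPM in the vehicle libraries and 11.02, 7.33 and 4.35 TPM in the lycorine libraries. Vehicle 2 lay just below lycorine 1, and the other vehicle libraries lay above all lycorine libraries. The means were 13.8 ± 3.88 and 7.57 ± 3.34 TPM (SD, n = 3 each). This gave a log2 fold change of -0.84 (SE 0.38, adjusted p 0.832 in limma). It stayed below 0 in all 18 alternatives, between -1.12 and -0.34, and was -0.85 without vehicle 3.

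Btg2 (GRCm38 chr1:134075170-134079120, minus strand), an antiproliferative gene induced by p53 and by growth factors, measured 11.04, 8.28 and 4.47 TPM in the vehicle libraries and 6.46, 2.62 and 4.72 TPM in the lycorine libraries. Vehicle 3 lay among the lycorine libraries, and the log2 fold change was -0.66 (SE 0.41, adjusted p 0.832 in limma), or -0.98 without vehicle 3. In the 18 alternatives it ran from -1.25 to -0.38. Gadd45a, induced by p53 after DNA damage, measured 4.77, 2.33 and 2.62 TPM in the vehicle libraries and 4.05, 1.10 and 1.40 TPM in the lycorine libraries. Lycorine 1 was the second highest library, and the log2 fold change of -0.48 (SE 0.45) was -0.87 without it. Gadd45a overlaps the noncoding gene E230016M11Rik on the opposite strand, at 0.57 to 12.9 TPM.

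Separation of Gadd45b and Btg2 turned on the scaling between libraries. With median-of-ratios scaling, which sets the typical gene equal between libraries, Gadd45b was at 4.02, 3.91 and 4.07 on the log2(scaled TPM + 1) scale in vehicle and at 3.28, 2.98 and 2.38 in lycorine, and the groups did not overlap. Btg2 was at 3.37, 3.61 and 2.67 in vehicle and at 2.61, 1.79 and 2.48 in lycorine on that scale, where vehicle 3 and lycorine 1 nearly met. These were the 2 members of 28 that lay wholly lower under that scaling, where 3.65% of all rows did. Over protein-coding nuclear genes alone the same 2 of 32 tested members lay wholly lower, against 1.91% of rows, and with quantile normalization 1 of 28 did, Gadd45b, against 2.82% of rows. With single libraries left out of the deposited TPM, Gadd45b lay wholly lower without vehicle 2 (7.58% of all rows) and without lycorine 1 (2.99%). Gadd45a also lay wholly lower without lycorine 1, and Btg2 did without vehicle 3 (1.96%). None of these members passed the adjusted threshold in limma under any of the 18 alternatives.

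**Figure D3:**
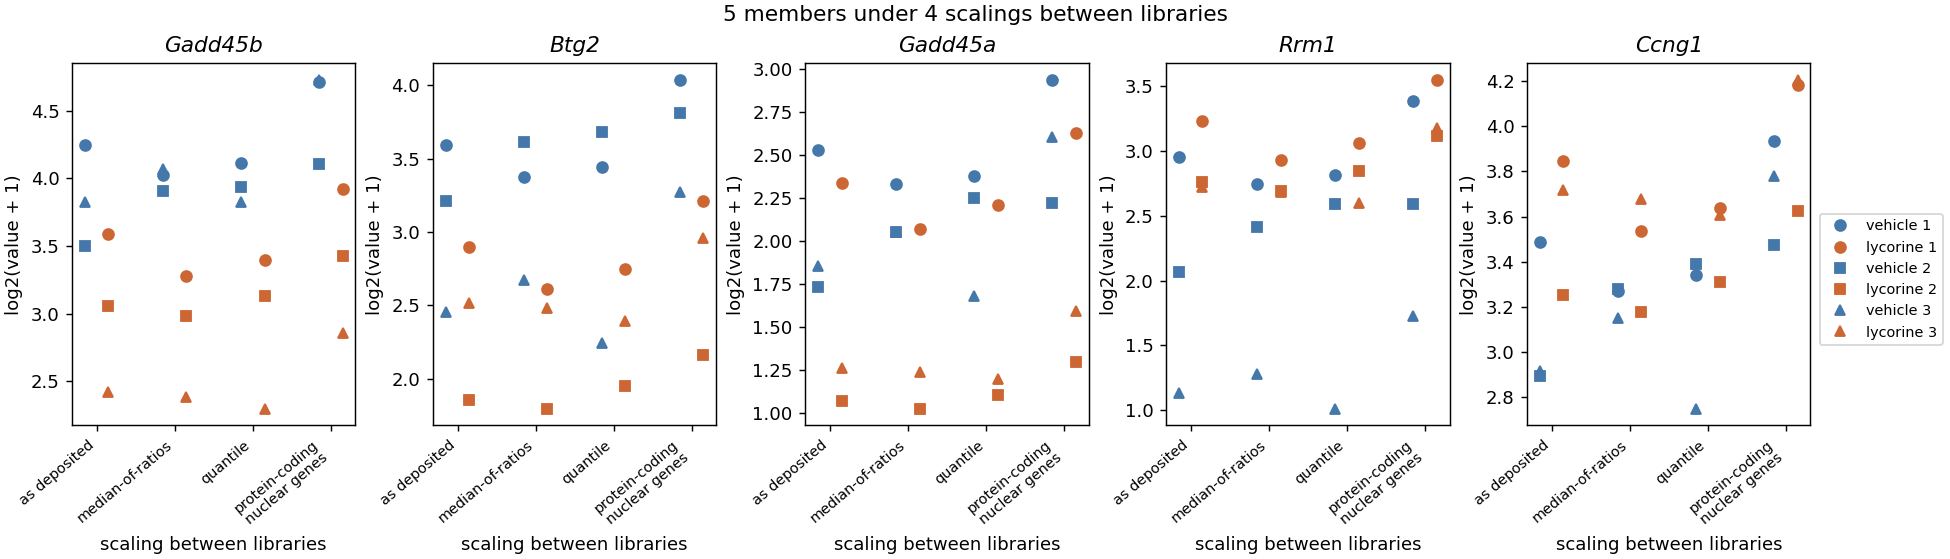
Values of 5 members on log2(value + 1) under 4 scalings between libraries, with blue points for vehicle and orange points for lycorine libraries. Gadd45b overlaps between groups as deposited and not in the 3 other scalings, Btg2 separates in 2 of them, and Gadd45a, Rrm1 and Ccng1 overlap in each of the 4. Vertical axes differ between panels and do not start at 0.

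Markers of several other cell types also had fold changes below 0. Of 9 Kupffer cell markers 8 were tested, all 8 had fold changes below 0, and 4 lay wholly lower in lycorine (Clec4f, Vsig4, Timd4 and Cd5l), where 30.1% of all rows were below 0 and 1.01% wholly lower. None of the 9 was at 0 in any library. Their summed level was 214 to 523 TPM in vehicle and 147 to 387 TPM in lycorine. Neutrophil markers summed to 6.98 to 29.9 TPM in vehicle and 1.81 to 4.87 TPM in lycorine, with Ly6g at 0 throughout and 5 of 7 markers at 0 in at least 1 library. All 3 tested neutrophil markers and all 6 tested sinusoidal endothelium markers had fold changes below 0, and 1 of each lay wholly lower. T and NK cell markers were below 0 in 4 of 5 tested, and monocyte and recruited macrophage markers in 4 of 5. Other lists were mostly above 0, as 69.9% of all rows were. These were B and plasma cell (4 of 4 tested), hepatocyte (7 of 9), cholangiocyte (4 of 7), stellate cell and fibroblast (4 of 6) and erythroid markers (3 of 5). The part of these cell types in the lower Gadd45b, Btg2 and Gadd45a values was not tested.

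Libraries of the same treatment differed widely. Vehicle 1 was the highest vehicle library in 22 of the 28 tested members, where it was so in 58.3% of all rows, and lycorine 1 was the highest lycorine library in 23 of 28, against 55.2% of all rows. Vehicle 3 was the lowest vehicle library in 16 of 28 (41.2% of all rows) and vehicle 2 in 11 (54.3%). Of all 6 libraries, vehicle 3 was the lowest in 14 of 28 (37.0%) and vehicle 2 in 9 (44.2%). Lycorine 3 was the lowest lycorine library in 14 of 28 (50.2%) and lycorine 2 in 11 (34.4%). The 40 members together summed to 423, 210 and 174 TPM in vehicle 1, 2 and 3 and to 363, 258 and 238 TPM in lycorine 1, 2 and 3. The G2 and mitosis members summed to 15.5, 7.69 and 6.38 TPM in the vehicle libraries and 13.4, 12.6 and 9.47 TPM in the lycorine libraries. Replication members summed to 31.3, 17.7 and 14.8 TPM in the vehicle libraries and 38.7, 25.8 and 23.4 TPM in the lycorine libraries. In each of these sums vehicle 1 lay above lycorine 2 and lycorine 3 and the groups overlapped.

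**Figure D4:**
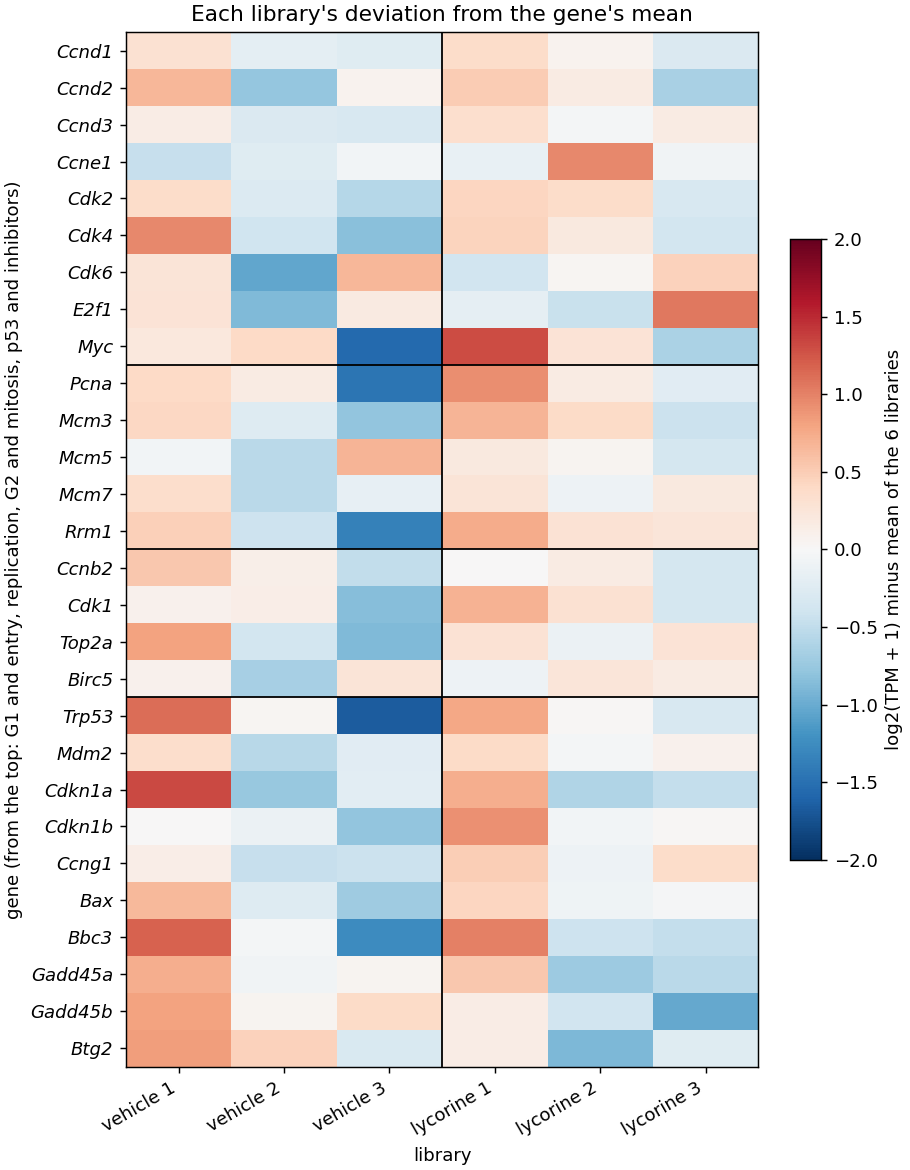
Deviation of each library from the gene's mean over the 6 libraries, in log2(TPM + 1), for the 28 tested members, with red above and blue below the mean. Columns are libraries, with vehicle left of the vertical line, and horizontal lines separate the roles. The columns of vehicle 1 and lycorine 1 are mostly red and those of vehicle 2 and vehicle 3 mostly blue. Gadd45a, Gadd45b and Btg2 at the bottom are blue in lycorine 2 and lycorine 3.

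Several marker lists were high in the same 2 libraries. Monocyte and recruited macrophage markers summed to 475 TPM in vehicle 1, to 426 TPM in lycorine 1 and to 82.5 to 196 TPM in the other 4. Stellate cell and fibroblast markers summed to 126 and 162 TPM in those 2 libraries against 36.5 to 77.3 TPM in the others, and cholangiocyte (bile duct cell) markers to 208 and 202 TPM against 46.7 to 139.6 TPM. B and plasma cell markers summed to 52.6 and 71.8 TPM against 26.0 to 41.98 TPM, and T and NK cell markers to 24.9 and 15.1 TPM against 5.44 to 12.04 TPM. Endothelial markers summed to 44.6 to 154.9 TPM in vehicle and 51.1 to 90.1 TPM in lycorine, erythroid markers to 515 to 750.3 and 425 to 676 TPM, and hepatocyte markers to 16235 to 44792 and 32021 to 48815 TPM. The part of these cell types in the levels of the cycle genes was not tested.

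Of the 6 libraries left out in turn, vehicle 1 changed the overlap most. Without it, 9 of the 28 tested members lay wholly higher in lycorine (Ccnd3, Cdk4, Mcm7, Rrm1, Top2a, Mdm2, Cdkn1b, Ccng1 and Bax), where 31.3% of all rows did. That share of members is near the share of all rows. Without both vehicle 1 and lycorine 3, the libraries with the highest Abcb4, 14 of 28 members lay wholly higher, where 46.2% of all rows did, and 0 lay wholly lower (3.18%). The 5 tested replication members then had a median log2 fold change of 1.06, where that of all rows was 0.40, and Gadd45b had -0.34. The 10 tested p53 response members had a median of 0.56 without vehicle 1, while that of all rows was 0.38. Without vehicle 3, the same 10 had a median of -0.41 in place of 0.14, while the median of all rows was 0.19 in place of 0.22. Without vehicle 2, the 9 tested G1 members had a median of 0.02 in place of 0.29, while that of all rows was 0.10.

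The wider pathways were described with a longer list. Of 153 further genes listed as G1 regulators, kinase inhibitors, replication factors, mitosis genes and p53 targets or regulators, 152 had a row and 98 were tested. In limma 0 passed the adjusted threshold, 3 had an unadjusted p under 0.05 on the higher side and 0 on the lower side, where 2.79% and 0.65% of all rows did. Both counts are near the shares of all rows. Their median log2 fold change was 0.27, and 79 of 98 were above 0, where 69.9% of all rows were. Of the 98, 10 lay wholly higher in lycorine and 0 wholly lower, where 9.6% and 1.01% of all rows did. By role the median was 0.13 for 14 G1 regulators, 0.37 for 3 kinase inhibitors, 0.33 for 32 replication factors, 0.23 for 16 mitosis genes and 0.25 for 33 p53 targets and regulators, and 28 of 44 listed mitosis genes were below the filter.

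None of the further genes had an unadjusted p under 0.01 in limma. The 3 with one under 0.05, named after their values were seen, were Rb1, Rfc4 and Gmnn. Rb1, the retinoblastoma protein that holds E2F factors inactive, measured 10.8, 6.16 and 2.97 TPM in the vehicle libraries and 15.5, 17.0 and 26.4 TPM in the lycorine libraries. Every lycorine library lay above every vehicle library, with a log2 fold change of 1.53 (SE 0.45, adjusted p 0.832 in limma) that ran from 0.91 to 1.92 over the alternatives and was 1.13 without vehicle 3. Rfc4, a subunit of the loader of the Pcna clamp, measured 2.52, 1.64 and 1.21 TPM in the vehicle libraries and 5.78, 5.12 and 3.24 TPM in the lycorine libraries, a log2 fold change of 1.03 (SE 0.34), or 0.88 without vehicle 3. Gmnn, geminin, which keeps origins from firing again, measured 3.45, 4.17 and 2.26 TPM in the vehicle libraries and 9.62, 5.54 and 6.65 TPM in the lycorine libraries, a log2 fold change of 0.94 (SE 0.33), or 0.76 without vehicle 3. All 3 separated the groups as deposited, and none passed the adjusted threshold.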

How the data were processed

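Liver RNA of 3 vehicle and 3 lycorine libraries was measured by RNA sequencing, from 1.3 µg of total RNA each per the labels' protocols. The authors deposited 1 table of TPM values. FPKM stands in its title, yet every column adds up to 1000000 within rounding. Vehicle columns carry only genotype and number and were matched to the vehicle titles by that number. GRCm38 and mm10 are the builds in the submitters' processing notes, and no aligner, quantifier or annotation is given in the sources used here. Names came from GENCODE M21. TPM keeps no depth, so no counting interval is given.

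The 13854 rows averaging 1 TPM or more were tested on log2(TPM + 1) with limma 3.58.1 in R 4.3.3 (variance trend, two-sided, Benjamini-Hochberg adjustment over all rows, threshold 0.05). The procedure was tested on simulated data. Members, gene lists, tests and alternatives were chosen with earlier results of these data known. Of the listed genes, Lin54 had no row. Described in full were, in each role, the 3 members with the highest mean and the 3 with the largest fold change, and any separated member or one with an unadjusted p under 0.05, and of further pathway genes up to 12 with an unadjusted p under 0.01. The other members are given by their values or ranges. The 18 alternatives covered pseudocount, filter, scaling, variance model, library weights, a replicate block and leaving out libraries. The one without both vehicle 1 and lycorine 3 was added after seeing their Abcb4 values.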

Additional observations from a re-analysis of the deposited data

How the results depend on the processing

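No member passed the adjusted threshold in any of the 18 alternatives. Of 489 pairs of a tested member and an alternative, 435 kept the direction and 54 did not, and 14 of the 28 members kept it throughout. Rows past the adjusted threshold numbered 0 in the main test, 1 at pseudocount 0.1, 1 under array quality weights and 0 to 2 with one library left out. Rows with an unadjusted p under 0.05 numbered 476, and 864 with no filter, 315 with a minimum mean of 5, 295 with quantile normalization, 247 over protein-coding nuclear genes, 1135 with array quality weights, 1033 with the replicate block, 1154 without both vehicle 1 and lycorine 3 and 193 to 1238 with one library left out. Members with such a p numbered 0 of 28, where 476 of 13854 rows had one. They numbered 2 with median-of-ratios scaling (320 of 13854 rows) and 1 with quantile normalization (295 of 13854). Over protein-coding nuclear genes they numbered 2 of 32 (247 of 11776 rows). With array quality weights there was 1 (1135 of 13854 rows), and with the replicate block there were 2, Gadd45b and Rrm1 (1033 of 13854). Without both vehicle 1 and lycorine 3 there were 2, Cdk2 and Cdk4 (1154 of 13854 rows). With one library left out there were 0 to 1 (193 to 1238 of 13854 rows). Members wholly higher in lycorine numbered 0, and 0 to 9 with one library left out, where 11.3% to 31.3% of all rows did. They numbered 3 without both vehicle 3 and lycorine 3 (25.5% of all rows) and 14 without both vehicle 1 and lycorine 3 (46.2%), a setting chosen after seeing the data. Members wholly lower numbered 0, 2 with median-of-ratios scaling (3.65% of all rows), 1 with quantile normalization (2.82%), 2 over protein-coding nuclear genes (1.91%), 0 to 2 with one library left out (1.46% to 7.58%), and 1 without both vehicle 3 and lycorine 3 (3.40%). The p53 response median minus that of all rows was -0.08 and ran from -0.60 to 0.18 with one library left out. The replication median minus that of all rows was 0.21. With one library left out it ran from 0.02 (without vehicle 3) to 0.51 (without lycorine 3). It was 0.06 with array quality weights and 0.66 without both vehicle 1 and lycorine 3.

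The replicate block gave 0 rows past the adjusted threshold. Same-numbered libraries had correlations of deviations across genes of 0.31, 0.05 and 0.29. The same-numbered library was the best match for vehicle 1 and vehicle 3, while vehicle 2 correlated best with lycorine 1 (0.21). The labels give no batch, so the numbers were not taken as pairs, and whether they mark a batch cannot be told.

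Directions reversed as follows, and the cause was not tested. With median-of-ratios scaling the log2 fold changes were -0.18 for Ccnd1, -0.10 for Ccnd2, -0.13 for Cdk4, -0.15 for Cdk6, -0.042 for Mcm7, -0.10 for Bax and -0.11 for Bbc3. With quantile normalization they were -0.046 for Ccnd1, -0.072 for Ccnd2, -0.11 for Cdk4, -0.040 for Cdk6 and -0.091 for Bax. Over protein-coding nuclear genes alone they were -0.14 for Ccnd1, -0.13 for Ccnd2, -0.085 for Cdk4, -0.14 for Cdk6, -0.0052 for Mcm7, -0.054 for Bax and -0.045 for Bbc3. Array quality weights gave 0.26 for Mcm5, -0.051 for Trp53, -0.00085 for Bax and -0.46 for Bbc3. Without both vehicle 3 and lycorine 3 the values were -0.011 for E2f1, 0.43 for Mcm5, -0.12 for Top2a, -0.18 for Trp53, -0.036 for Bax and -0.27 for Bbc3. Without both vehicle 1 and lycorine 3 they were 0.056 for Mcm5, 0.27 for Ccnb2 and 0.55 for Cdkn1a. With one library left out, ranges that crossed 0 were -0.062 to 0.27 for Ccnd1, -0.36 to 0.36 for Ccnd2, -0.20 to 0.70 for Cdk4, -0.43 to 0.43 for Cdk6, -0.17 to 0.58 for E2f1, -0.34 to 0.27 for Mcm5, -0.39 to 0.13 for Ccnb2, -0.067 to 0.78 for Top2a, -0.075 to 0.38 for Birc5, -0.42 to 0.97 for Trp53, -0.67 to 0.37 for Cdkn1a, -0.10 to 0.59 for Bax and -0.53 to 0.69 for Bbc3. Where 2 libraries of a group remained, the pooled spread was used. Depth is unknown, and differences of members near 1 TPM are the least certain.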
